A study of Mus musculus with 33 samples.

Results

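Mouse embryonic stem (ES) cells on feeder fibroblasts with LIF (day 0) were compared with the same cells at day 5 of differentiation. The comparison covers 4 of the 12 RNA libraries of a series of 33 samples, and all genes in them. These are 1 library of the line labelled WT and 1 of the line labelled RepB at each day. All 4 carry the CAST/Ei x 129/Sv/Jae strain label. WT is wildtype; RepB takes its name from a repeat of Xist, and what was edited is not stated in the labels. Day 0 cells had grown with γ-irradiated embryonic fibroblasts as feeders, with LIF and serum. Day 5 cells had been freed of feeders by trypsin, kept as embryoid bodies in suspension without LIF among the listed medium components, and settled on gelatin a day before. Loss of feeders, loss of LIF, growth in suspension and time came together, so their effects cannot be told apart. There was no replicate culture: the only spread is that between the lines, and no p-value below says anything about other cultures.

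Mouse ES cells in LIF and serum are held in the naive state, which resembles the epiblast before implantation. LIF acts through its receptor and gp130 to activate STAT3, which sustains factors such as Klf4 and Tbx3, while FGF signalling through ERK pushes cells out of that state. After LIF is withdrawn, cells pass through a formative state marked by Fgf5, Otx2 and the de novo DNA methyltransferases. They then turn to the germ layers, and T (Brachyury) and Eomes mark the primitive streak.

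The 4 libraries held 16888957 (WT day 0), 15231930 (RepB day 0), 17773138 (WT day 5) and 5297648 counts (RepB day 5). A gene without a count is bounded by 3 counts, which is 0.169 to 0.566 CPM in these libraries, for counting error only. Of 24391 genes, 14472 had enough counts to be tested. Levels are CPM, counts divided by a library size adjusted with trimmed means. Changes are log2 of day 5 over day 0 from the edgeR fit over both lines. The standard error (SE) given with each was worked back from the test. It is the size of the change over the square root of the quasi-likelihood F, so it adds no separate measure of spread. A gene was called when its Benjamini-Hochberg adjusted p was under 0.05. At day 5, 3483 genes were higher (24.1% of those tested) and 3601 were lower (24.9%), so 48.9% were called in either direction. At least a 2-fold change was seen in 1547 of the genes called higher and in 2064 of those called lower. The median change of all genes tested was 0.0007.

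The lines moved alike. Of the called genes, 3469 of 3483 higher and 3571 of 3601 lower had the same sign in WT and in RepB. A call rests on the change fitted over both lines, so the selection favours equal signs and these counts alone cannot show likeness. Across all genes tested, the log2 changes of the lines had a Pearson r of 0.869; genes are not independent replicates, and no p is given. With 1 residual degree of freedom per gene, 80.3% of genes took their spread wholly from other genes, so the size of a change is given first here and very small p-values are not printed.

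**Figure D1:**
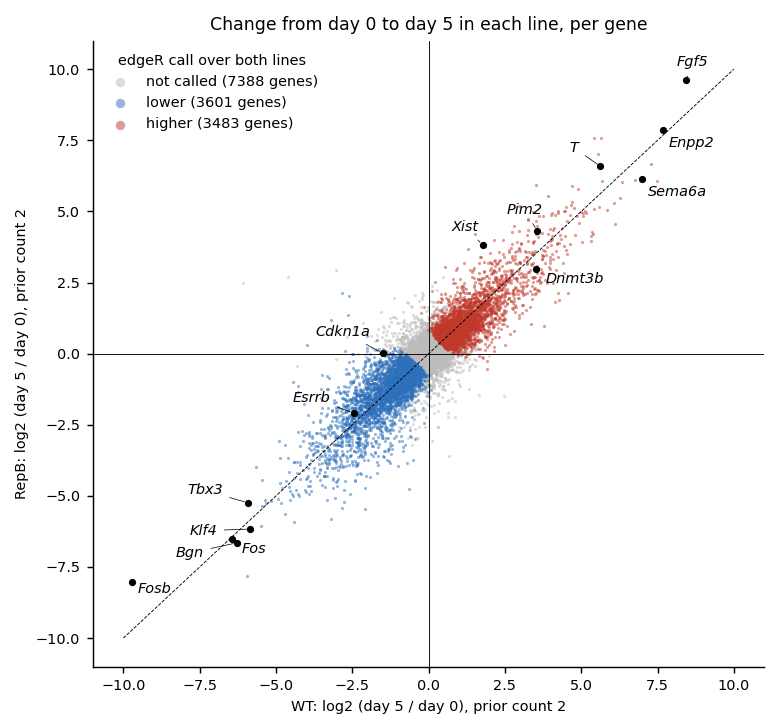
Each point is a gene, with its log2 change from day 0 to day 5 in WT (x axis) and in RepB (y axis), computed with a prior count of 2 and coloured by the edgeR call. The 3483 genes called higher and the 3601 called lower lie along the dashed line of equal change, while Cdkn1a fell in WT and not in RepB.

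The largest rise belonged to Fgf5, a growth factor of the epiblast after implantation. Its level was 0.456 CPM in WT and 0.132 CPM in RepB at day 0, and 207 CPM and 215 CPM at day 5 (log2 change 9.39 ± 0.31 SE). At day 5 the lines reached nearly the same level. The deposited table lists Fgf5 at chr5:98683203-98683779 (mm9, first interval listed). Enpp2, which encodes the lysophospholipase autotaxin, had 0.171 and 0.0659 CPM at day 0 and 64.4 and 48.7 CPM at day 5 in WT and RepB (8.77 ± 0.39). Both Fgf5 and Enpp2 were thus near the counting floor at day 0, so their fitted folds depend on a handful of counts. The other genes among the 12 largest rises were Spon1, Magel2, Gbp2b, Sema6a, Car4, Gbp2, T, Zfp608, Fndc3c1 and Slc39a8. Sema6a, a transmembrane semaphorin of axon guidance, started from a measurable level: 2.22 and 3.23 CPM at day 0 became 303 and 238 CPM at day 5 (6.64 ± 0.24). Car4, a membrane-bound carbonic anhydrase, went from 1.94 and 2.44 CPM to 225 and 176 CPM (6.51 ± 0.24). The guanylate-binding GTPases Gbp2 and Gbp2b, which interferon is known to induce, stood at 41.5 and 43.7 CPM and at 35.4 and 40.2 CPM at day 5, against at most 0.742 CPM at day 0. They are close relatives whose reads the counting could split, so their values are uncertain.

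The largest fall was that of Fosb, a subunit of the AP-1 transcription factor. Fosb had 361 CPM in WT and 290 CPM in RepB at day 0, and 0.283 and 0.975 CPM at day 5 (-9.52 ± 0.31). The RepB day 5 library, the shallowest, had the higher of the day 5 values, and no day 5 value came near day 0. Fos, of the same family, had 417 and 477 CPM and then 4.69 and 5.07 CPM (-6.50 ± 0.23). The other genes of the 12 largest falls were B3gnt3, Bgn, Klf4, Tbx3, Lox, Col12a1, Emp1, Egr1, Mgp and Mras. They thus held naive factors (Klf4, Tbx3), immediate early genes (Fosb, Fos, Egr1) and genes of extracellular matrix (Bgn, Lox, Col12a1, Mgp). All 24 of these largest rises and falls kept their call in each of 12 alternative fits. At least a 16-fold rise was seen in 122 called genes and at least a 16-fold fall in 131.

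Of 21 naive pluripotency genes, all tested, 19 were lower at day 5, 1 was higher (Dppa3) and Eras was not called. Their median change was -1.92, against 0.0007 over all genes. Klf4, a Krüppel-like factor downstream of LIF, had 1121 CPM in WT and 1481 CPM in RepB at day 0 and 19.4 and 20.5 CPM at day 5 (-6.00 ± 0.21). Tbx3, a T-box factor of the same circuit, had 258 and 331 CPM and then 4.13 and 8.58 CPM (-5.66 ± 0.22). These 2 genes fell far more than the rest of the list. Esrrb, an orphan nuclear receptor, fell less: 1000 and 1009 CPM became 183 and 237 CPM (-2.27 ± 0.17). Klf2 went from 663 and 795 CPM to 116 and 206 CPM (-2.23 ± 0.17), and Zfp42 (Rex1), a common naive reporter gene, from 482 and 667 CPM to 154 and 259 CPM (-1.51 ± 0.17). Nanog, the homeodomain factor of the naive network, fell least among the members given here: 709 and 769 CPM became 356 and 515 CPM (-0.79 ± 0.16). In each of these genes the RepB day 5 level was above the WT day 5 level, a difference with no replicate to test it. Dppa3 (Stella), an oocyte and germ cell factor named because it went against the list, had 22.8 and 18.2 CPM at day 0 and 47.5 and 71.7 CPM at day 5 (1.50 ± 0.20).

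General pluripotency genes, which both naive and primed cells use, went both ways: of 14, 8 were higher and 4 lower, with a median of 0.38. The shares were 57.1% and 28.6%, against 24.1% and 24.9% of all genes tested. Pou5f1 (Oct4) was not reduced at day 5. It had 786 and 958 CPM at day 0 and 1005 and 1234 CPM at day 5, a rise of 0.36 ± 0.16 that passed narrowly (edgeR adjusted p = 0.048) and was lost in most alternatives, without the WT day 0 library (0.22, adjusted p = 0.449) among them. Sox2 fell by 0.65 ± 0.16, from 665 and 832 CPM to 389 and 580 CPM, and lost its call without the RepB day 0 library (adjusted p = 0.146) and without the WT day 5 library (adjusted p = 0.125). Lin28a, an RNA-binding protein that blocks let-7 maturation, went the other way, from 231 and 212 CPM to 594 and 585 CPM (1.41 ± 0.17). The 8 rises became 3 without the WT day 0 library and 4 without the RepB day 5 library. The 4 falls became 0 without the RepB day 0 library, and likewise without the WT day 5 library.

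LIF receptor pathway genes were lower almost throughout: 12 of 13 fell and Socs2 rose, with a median of -0.90. Socs3, the feedback inhibitor that STAT3 induces, had 333 and 330 CPM in the day 0 libraries and 38.4 and 31 CPM in the day 5 libraries (-3.25 ± 0.19). The WT and RepB values lay close together on each day. Receptor chains fell as well: Il6st (gp130) went from 147 and 154 CPM to 87.2 and 90.5 CPM (-0.76 ± 0.17). Stat3 and Lifr, both added after their values were seen, fell by 1.69 ± 0.18 and by 1.60 ± 0.19. The Pim kinases split. Pim1 had 236 and 235 CPM and then 134 and 138 CPM (-0.79 ± 0.17), and Pim3 changed by -0.90 ± 0.17, whereas X-linked Pim2 had 69 and 60.5 CPM and then 813 and 1206 CPM (3.94 ± 0.18).

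**Figure D2:**
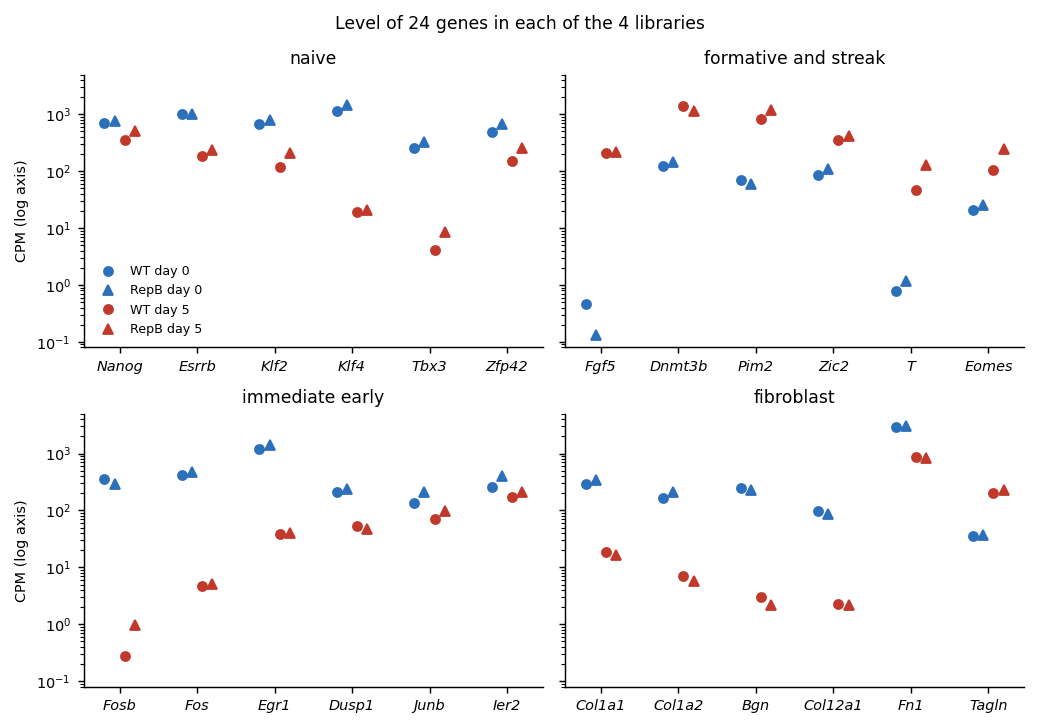
CPM on a log axis for 6 genes in each of 4 groups, with blue for day 0, red for day 5, circles for WT and triangles for RepB. Both day 5 values are below both day 0 values for every gene of the naive and immediate early panels. They are above them for every gene of the formative and streak panel. In the fibroblast panel Tagln alone is higher at day 5 (203 and 231 CPM against 35.7 and 37.2 CPM). The share of all genes tested whose groups lie apart in this way was not counted.

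Formative epiblast genes rose: 18 of 20 were higher, 2 were lower (Etv4, Dnmt3l), and the median was 1.74. Dnmt3b, the de novo DNA methyltransferase of the epiblast, had 124 and 146 CPM at day 0 and 1422 and 1152 CPM at day 5 (3.25 ± 0.18). Zic2, a zinc finger factor of epiblast and neural plate, had 86.9 and 111 CPM and then 356 and 422 CPM (1.98 ± 0.17). Dnmt3a rose from 157 and 180 CPM to 332 and 338 CPM (0.99 ± 0.17). Otx2 and Pou3f1, both classic markers of this state and added after their values were seen, rose by 2.40 ± 0.18 and 2.74 ± 0.19. Dnmt3l, the catalytically inactive cofactor of the de novo enzymes, went against its partners, with 321 and 279 CPM at day 0 and 137 and 196 CPM at day 5 (-0.87 ± 0.17). Of the list's calls, 15 of the 18 rises and both falls were kept in all 12 alternatives.

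Of 12 DNA methylation and demethylation genes, the writers and erasers of that mark, 2 were higher (Dnmt3b, Dnmt3a) and 5 lower, with a median of -0.20. The shares were 16.7% and 41.7%, against 24.1% and 24.9% of all genes tested. Tet1, which oxidises methylcytosine, had 1132 and 1075 CPM at day 0 and 340 and 402 CPM at day 5 (-1.58 ± 0.16). Tet2, added after its values were seen, fell from 346 and 412 CPM to 57.8 and 70.4 CPM (-2.57 ± 0.18). Zfp57, which protects imprinted marks, fell from 338 and 481 CPM to 86.2 and 98.5 CPM (-2.13 ± 0.17). The maintenance enzyme Dnmt1 had 578 and 668 CPM and then 615 and 592 CPM (-0.04 ± 0.16, not called), and the groups overlapped.

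Germline and meiosis genes are known targets of promoter methylation and of repression by E-box binding complexes. Of 22 tested, 16 were lower, 1 was higher (Tdrd1) and 5 were not called, with a median of -1.85. Sohlh2, a germ cell helix-loop-helix factor, went from 106 and 104 CPM to 20.2 and 31.6 CPM (-2.07 ± 0.19). Tex14, a component of germ cell bridges, went from 64.6 and 65.8 CPM to 12.3 and 15.2 CPM (-2.27 ± 0.21), and the cohesin subunit Stag3 from 52 and 54.8 CPM to 12.4 and 10.1 CPM (-2.22 ± 0.22). Smc1b, another meiotic cohesin subunit, was not called: it had 65.7 and 56.8 CPM and then 38.6 and 69.6 CPM, falling in WT alone. Hormad1, of the meiotic axis, likewise had 17.1 and 13.8 CPM and then 7.85 and 23 CPM. Without the RepB day 5 library both were called lower (-0.67, edgeR adjusted p = 0.0143, and -0.98, adjusted p = 0.00673), and without the WT day 5 library 2 members rather than 1 were called higher. Tdrd1, added because it went against the list, had 0.913 and 0.923 CPM at day 0 and 4.75 and 5.07 CPM at day 5 (2.40 ± 0.41).

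The promoters of this group are shown because members that fell and members that did not carry the same letters. RefSeq promoters (GRCm38.p6) were found for 19 of the 22 genes, and the 250 bases before each start were searched on both strands for 9 motifs. The E-box CACGTG, a palindrome, was found in 11 of 19 (57.9%), against 6.05% of 27025 promoters of the same length. Of these 11, 6 genes were lower at day 5, 1 was higher and 4 were not called. TCCCGC, as in E2F sites, was found in 7 (36.8%, against 16.9%), TCACACCT in 2 (10.5%, against 1.14%) and AGATAA in 1 (5.26%, against 10.3%). TCAAGGTCA, GGGTGTGGC, TTCCNGGAA, TGACGTCA and GGAATG were found in 0 of the 19 windows. No E-box match overlapped another motif. Capitals below mark CACGTG, and each stretch is written 5′ to 3′ on the strand of its gene. Hormad1 and Sycp3, which were not called, carry repeated CACGTG matches and are not printed. The first 6 genes printed were lower at day 5, Tdrd1 was higher, and Brdt and Sycp1 were not called. They lie at chr6:49395464-49395509 (Stk31, plus strand), chr5:138280319-138280364 (Stag3, plus), chrX:134476514-134476559 (Taf7l, minus), chr15:88982744-88982773 (Mov10l1, plus), chr1:166238942-166238987 (Mael, minus) and chr13:112652314-112652359 (Ddx4, minus). The others lie at chr19:56826178-56826208 (Tdrd1, plus), chr5:107331096-107331141 (Brdt, plus) and chr3:102936169-102936214 (Sycp1, minus).
Stk31: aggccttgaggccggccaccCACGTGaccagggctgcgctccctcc
Stag3: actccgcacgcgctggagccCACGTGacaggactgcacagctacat
Taf7l: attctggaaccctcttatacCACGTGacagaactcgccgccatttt
Mov10l1: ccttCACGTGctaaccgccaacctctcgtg
Mael: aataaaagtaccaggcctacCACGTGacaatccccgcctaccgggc
Ddx4: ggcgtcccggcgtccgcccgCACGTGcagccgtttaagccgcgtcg
Tdrd1: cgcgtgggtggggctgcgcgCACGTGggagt
Brdt: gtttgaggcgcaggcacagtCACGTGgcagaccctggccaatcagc
Sycp1: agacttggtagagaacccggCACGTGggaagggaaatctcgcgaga

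Among primitive streak and mesoderm genes, 26 of 27 listed were in the table and 23 were tested. Of these 10 were higher and 8 lower, with a median of 0.79. The shares were 43.5% and 34.8%, against 24.1% and 24.9% of all genes tested. T had 0.799 CPM in WT and 1.19 CPM in RepB at day 0 and 46.3 and 128 CPM at day 5 (6.36 ± 0.28). Eomes, a T-box factor of streak and endoderm, had 21 and 25.1 CPM and then 106 and 249 CPM (2.82 ± 0.19). In both genes the RepB day 5 level was well above the WT level. The call of Eomes was lost without the WT day 0 library (edgeR adjusted p = 0.07) and without the RepB day 0 library (adjusted p = 0.0516). Wnt3, Mixl1 and Evx1, added after their values were seen, rose by 4.74 ± 0.33, 3.82 ± 0.39 and 4.37 ± 0.38. The members that fell were Cdx1, Foxc2, Mesp2, Foxc1, Tbx6, Hand1, Tcf15 and Snai1. Tcf15, of early mesoderm and epiblast, had 28.2 and 44.8 CPM at day 0 and 19.2 and 16.6 CPM at day 5 (-0.96 ± 0.22; edgeR adjusted p = 0.0649 without the RepB day 0 library). The 8 falls of the list became 5 without the WT day 0 library, and likewise without the WT day 5 library or with DESeq2.

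Regulators of definitive endoderm were mostly lower: 7 of 12 fell and 2 rose (Foxa2, Cer1), with a median of -1.11. The shares were 58.3% and 16.7%, against 24.9% and 24.1% of all genes tested. Foxa2, a forkhead factor of anterior streak and endoderm, had 0.456 and 0.461 CPM at day 0 and 10 and 12.1 CPM at day 5 (4.55 ± 0.39). Hnf4a, a nuclear receptor of visceral endoderm and liver, had 17.7 and 16.2 CPM and then 2.71 and 2.14 CPM (-2.78 ± 0.30), and Gata4 had 14.4 and 12 CPM and then 2.26 and 3.12 CPM (-2.38 ± 0.31). Of the rises, Cer1 had too few counts to be tested without the WT day 5 library, which left 1. Among 10 tested visceral endoderm genes 5 were higher and 3 lower (50% and 30%, against 24.1% and 24.9% of all genes tested). Lrp2 (megalin), an endocytic receptor, rose from 38.3 and 46.1 CPM to 562 and 256 CPM (3.18 ± 0.19). The count of 5 was 3 without the WT day 0 library and 3 without the RepB day 5 library. Of 12 parietal endoderm and basement membrane genes 7 were lower and 3 higher (58.3% and 25%, against 24.9% and 24.1% of all genes tested). Without the WT day 0 or the RepB day 0 library 1 was higher. The basement membrane linker Nid1 fell from 324 and 297 CPM to 45.5 and 45.6 CPM (-2.77 ± 0.18).

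Neural ectoderm genes were higher in 2 of 11 tested (Nes, Ptprz1) and lower in 5, with a median of -0.56. These shares were 18.2% and 45.5%, against 24.1% and 24.9% of all genes tested. The median was -0.24 in WT and -1.17 in RepB, a difference that was not tested. The summed level of the list was 352 and 442 CPM at day 0 and 438 and 410 CPM at day 5. Nes (nestin), an intermediate filament also found in epiblast cultures, had 58.9 and 75.9 CPM at day 0 and 297 and 300 CPM at day 5 (2.16 ± 0.18). Ncam1, a neural adhesion molecule, had 135 and 160 CPM and then 16.2 and 20.3 CPM (-3.02 ± 0.20). Sox1 and Pax6, which define neural precursors, stood at 3.96 and 1.75 CPM and at 6.44 and 4.09 CPM at day 5 and were not called. The 5 falls became 3 without the RepB day 0 library, and without the WT day 5 library Sox1 was called lower too (-1.59, edgeR adjusted p = 0.0196). Blood and endothelial genes were higher in 6 of 13 tested and lower in 5 (46.2% and 38.5%, against 24.1% and 24.9% of all genes tested). The embryonic globins Hba-x and Hbb-bh1, at 0 in both day 0 libraries and close relatives of other globins, reached at most 2.54 CPM. Both are among the rises and could pass the count filter through day 5 alone. Pecam1, an adhesion molecule shared by endothelium and naive ES cells, fell from 187 and 174 CPM to 64.6 and 86.8 CPM (-1.28 ± 0.18). These counts became 2 and 3 without the WT day 5 library. Of 9 cardiac muscle genes 2 were higher (Actc1, Ttn) and 5 lower (22.2% and 55.6%). Their summed level was at most 37.8 CPM in each of the 4 day 0 and day 5 libraries. Of the 2 rises 1 remained a call without the WT day 0, the WT day 5 or the RepB day 5 library.

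Simple epithelial keratins rose. The list of trophoblast and simple epithelium had 7 of 10 tested members higher, 2 lower and a median of 2.03. Krt18 had 14.3 and 12.5 CPM at day 0 and 204 and 152 CPM at day 5 (3.72 ± 0.20), and its partner Krt8 had 8.27 and 9.16 CPM and then 88.3 and 80.9 CPM (3.28 ± 0.21). Tfap2c, a trophoblast and germ cell factor, fell from 111 and 117 CPM to 57.2 and 73.1 CPM (-0.82 ± 0.18). The other members called higher were Plac1, Gcm1, Krt7, Gata3 and Krt19, and Plac1 rose most in the list. Elf5, Prl3d1 and Tpbpa, which define trophoblast, had too few counts to be tested.

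Epithelial junction genes rose too, 12 of 14 with none lower and a median of 1.13. Cdh1 (E-cadherin) had 688 and 713 CPM at day 0 and 1408 and 1248 CPM at day 5 (0.92 ± 0.16). Epcam, a surface adhesion molecule, had 92.6 and 76.6 CPM and then 281 and 271 CPM (1.71 ± 0.17), and the tight junction claudin Cldn6 had 26.2 and 17.1 CPM and then 240 and 204 CPM (3.38 ± 0.19). All day 5 values of these 3 genes were above all day 0 values, but how many of all genes tested do so was not counted. Of the genes of mesenchymal transition 6 of 13 were lower and 2 higher (46.2% and 15.4%, against 24.9% and 24.1% of all genes tested). Vim (vimentin), which fibroblasts also make, fell from 382 and 390 CPM to 105 and 136 CPM (-1.70 ± 0.17), and Zeb1, a repressor of Cdh1, from 28.8 and 40 CPM to 6.27 and 7.8 CPM (-2.27 ± 0.24). Cdh2 (N-cadherin) rose from 7.42 and 10.9 CPM to 31 and 33.1 CPM (1.84 ± 0.23). Of the 2 rises 1 was left without the RepB day 0 or the RepB day 5 library.

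**Figure D3:**
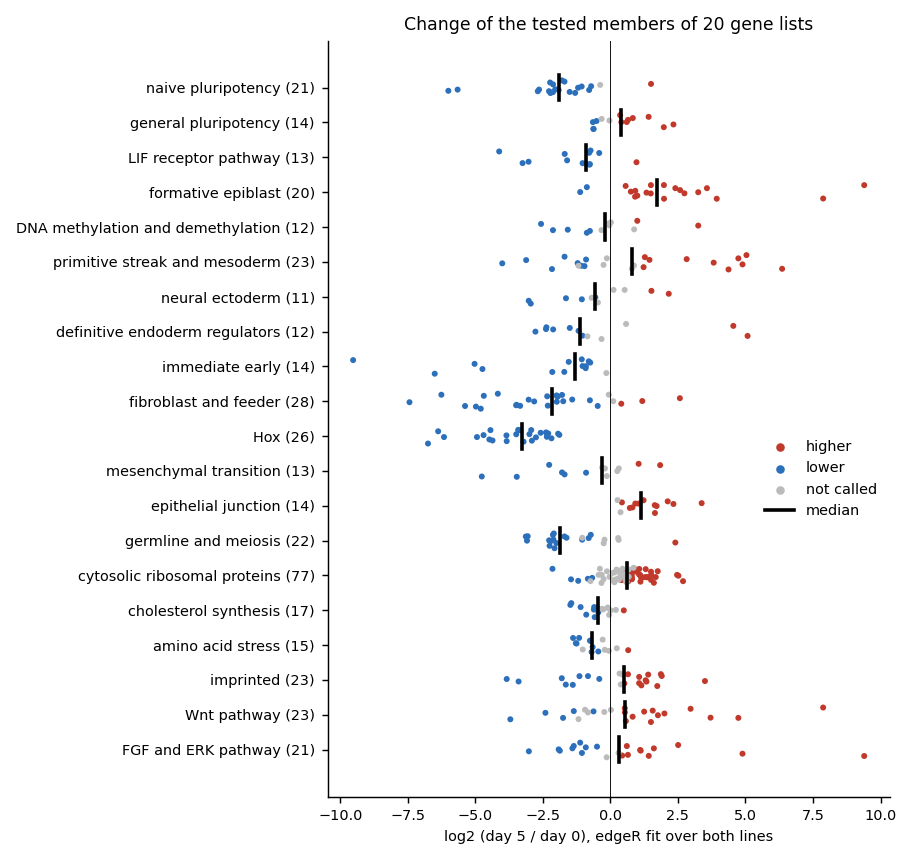
Log2 change from day 0 to day 5 of each tested member of 20 gene lists, with the number tested in parentheses, points coloured by the edgeR call and a bar at the median. The naive (-1.92), fibroblast (-2.16), germline (-1.85) and Hox (-3.27) medians lie left of 0, and the formative (1.74) and epithelial junction (1.13) medians lie right of it.

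Fibroblast and feeder genes were lower in 23 of 28 tested, higher in 3 (Tagln, Cyr61, Mmp2) and not called in 2, with a median of -2.16. The summed level of the list was 5136 CPM in WT and 5366 CPM in RepB at day 0 and 1951 and 1794 CPM at day 5. In such bulk samples fewer cells of a type and less RNA per cell cannot be told apart. Col1a1, a chain of type I collagen, had 292 and 339 CPM at day 0 and 18.3 and 16.2 CPM at day 5 (-4.17 ± 0.20). Fn1 (fibronectin), which ES cells and endoderm also make, had 2970 and 3027 CPM and then 889 and 844 CPM (-1.79 ± 0.16). Bgn (biglycan), a matrix proteoglycan on the X, listed at chrX:70728974-70729101 (mm9, first interval listed), had 249 and 230 CPM and then 3.05 and 2.14 CPM (-6.46 ± 0.25). Col12a1 had 96.1 and 86.1 CPM and then 2.26 and 2.14 CPM (-5.38 ± 0.26). Tagln, an actin-binding protein of smooth muscle and fibroblasts, rose from 35.7 and 37.2 CPM to 203 and 231 CPM (2.57 ± 0.18). The list did not move as 1 block, although most of its matrix members fell together in both lines.

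The deposited table splits reads over strain variants into cas and mus, taken to stand for the CAST/Ei and the 129/Sv/Jae allele. Where a gene's 10 nearest informative neighbours were near equal at day 0, the share of cas reads bears on which genome the RNA came from. Over both day 0 libraries the cas share was 1.19% for Col1a1 (neighbour median 46.3%), 0.222% for Col12a1 (52.2%), 0.553% for Bgn (50.3%) and 1.46% for Tagln (49%). It was 16.2% for Loxl1 (52%), 18.6% for Col1a2 (66%) and 23% for Col5a1 (47.7%). Each of these 7 matrix or cytoskeletal genes had a cas share below that of the lowest of its 10 neighbours, and 4 had almost none. The margin was small for Loxl1 (lowest neighbour 17.4%), and the neighbours of Col1a2 (60.9% to 72.4%) all leaned to cas. How often other genes lie below all their neighbours was not counted. At day 5 the WT share was 42.2% for Col1a1 (19 of 45 reads, exact Clopper-Pearson 95% interval 27.7% to 57.8%) and 58.6% for Col1a2 (17 of 29 reads, 38.9% to 76.5%). For Tagln it was 51.9% in WT (47.3% to 56.6%) and 44.6% in RepB (37.2% to 52.3%) at day 5. Each of these day 5 intervals includes the neighbour median at day 0. Thy1, a surface protein of fibroblasts and of ES cells, had 49.4% at day 0 (47.9%) although its level fell from 103 and 123 CPM to 31.1 and 26.1 CPM (-1.96 ± 0.19). Fosb had 52.3% (51.8%), Tbx3 40.2% (50.7%) and Zfp42 58.4% (62.3%), so these genes were read from both alleles at day 0, although the share of Tbx3 lay below that of its lowest neighbour (44.7%). Much of the genome was almost all mus in these cells, among it the stretches around Fn1, Fos, Egr1, Klf4 and Nanog, where a low cas share tells nothing. In such stretches some genes had a cas share above that of the highest of their 10 neighbours. Thbs1, a matrix protein, had 75.5% at day 0 (neighbour median 0.29%, highest 8.2%), and 4.6% in WT and 8.2% in RepB at day 5. Fbln2 had 23.1% at day 0 (median 1.06%, highest 3.5%), Col6a3 19.8% (median 0.554%, highest 12.4%) and Klf4 18.3% (median 0.317%, highest 1.68%). The strain of the feeders was not given in the sources used here, and genes of this paragraph outside the naming rule were chosen after their values were seen.

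**Figure D4:**
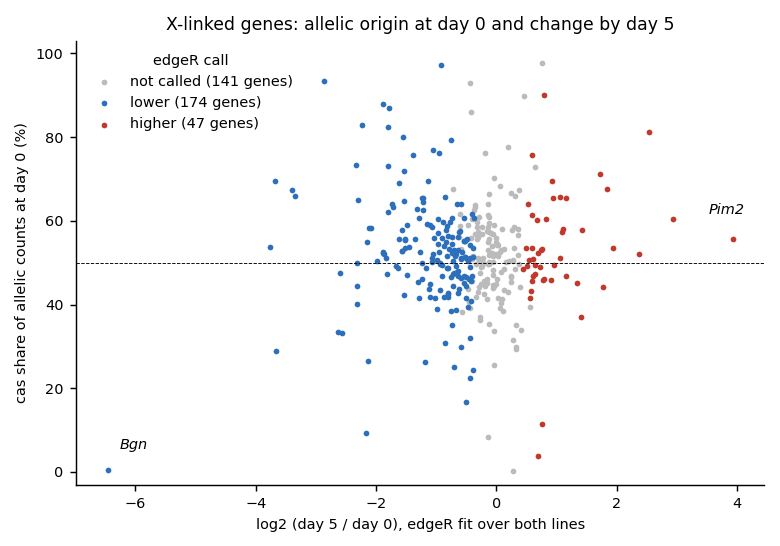
Each point is 1 of 362 X-linked genes with at least 40 allelic counts at day 0, with its log2 change by day 5 (x axis, edgeR fit) and the cas share of its allelic counts at day 0 (y axis, dashed line at 50%). Most genes lie around the median of 51.7%, and Bgn, with the largest fall, has 0.553%. Low shares were also seen in genes that did not fall, such as Ngfrap1 (0.214%, log2 0.27, not called) and Rps4x (3.91%, log2 0.69, called higher).

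Immediate early genes fell: 13 of 14 were lower, none was higher and the median was -1.30. Egr1, a zinc finger factor rapidly induced by growth factors, had 1192 and 1427 CPM at day 0 and 38.7 and 40.9 CPM at day 5 (-5.03 ± 0.19). Dusp1, a phosphatase of MAP kinases, had 211 and 243 CPM and then 54.4 and 47 CPM (-2.15 ± 0.18). Junb fell less, from 138 and 211 CPM to 71.4 and 97.5 CPM (-1.03 ± 0.17), and Btg2 had 103 and 98.2 CPM and then 75.8 and 109 CPM (-0.15 ± 0.18, not called). Ier2 was called lower (-0.75 ± 0.17) but not without the RepB day 0 library (-0.41, edgeR adjusted p = 0.102) or the WT day 5 library (-0.68, adjusted p = 0.0771). The summed level of the list went from 3010 and 3542 CPM to 552 and 650 CPM. Fibroblasts make these RNAs too, and the summed fibroblast list fell as given above; its part here was not tested.

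Genes of the FGF and ERK pathway went both ways: of 21 genes, 10 were higher and 9 lower, with a median of 0.30. The shares were 47.6% and 42.9%, against 24.1% and 24.9% of all genes tested. Among ligands, Fgf4, which ES cells make, fell from 310 and 263 CPM to 72.2 and 79.9 CPM (-1.92 ± 0.18), while Fgf8, of the streak, rose from 2.45 and 2.37 CPM to 58.6 and 88.9 CPM (4.89 ± 0.25). Among receptors Fgfr1 rose from 216 and 243 CPM to 368 and 330 CPM (0.61 ± 0.17; without the WT day 0 library edgeR adjusted p = 0.0519). Feedback inhibitors split as well: Il17rd rose from 72.1 and 64.9 CPM to 222 and 196 CPM (1.61 ± 0.18), and the X-linked phosphatase Dusp9 fell from 286 and 260 CPM to 141 and 149 CPM (-0.91 ± 0.17). Dusp6, a direct ERK feedback phosphatase added after its values were seen, rose from 30.2 and 29.6 CPM to 169 and 171 CPM (2.51 ± 0.19).

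In the Wnt pathway 13 of 23 genes tested were higher and 5 lower, with a median of 0.54. The shares were 56.5% and 21.7%, against 24.1% and 24.9% of all genes tested. The receptor Fzd7 rose from 65.8 and 54.9 CPM to 238 and 173 CPM (1.76 ± 0.18), and Fzd5 fell from 155 and 176 CPM to 50.9 and 46.4 CPM (-1.75 ± 0.18). Sfrp1, a secreted inhibitor, fell from 176 and 201 CPM to 44 and 27.1 CPM (-2.41 ± 0.19). Among feedback targets, Sp5 rose by 3.71 ± 0.26 and Axin2 by 1.57 ± 0.21; both were added after their values were seen. The call of Sp5 was lost without the WT day 0 library (edgeR adjusted p = 0.113) and without the RepB day 0 library (adjusted p = 0.088). Those fits leave out line as well, and with line left out of the fit on all 4 libraries the call was lost too (3.79, adjusted p = 0.0694). The 5 falls became 3 without the WT day 0, the RepB day 0 or the WT day 5 library. Of 15 Nodal and activin genes 5 were higher and 6 lower (33.3% and 40%, against 24.1% and 24.9% of all genes tested). The nuclear partner Foxh1 rose from 85.4 and 90.5 CPM to 215 and 221 CPM (1.31 ± 0.17), and the inhibitor Lefty2 fell from 382 and 531 CPM to 192 and 312 CPM (-0.88 ± 0.17), a call lost without the RepB day 0 library (-0.61, edgeR adjusted p = 0.0857), when 3 members were called higher. Of 14 BMP genes 4 were higher and 3 lower (28.6% and 21.4%, against 24.1% and 24.9% of all genes tested). The ligand Bmp4 fell from 44.2 and 67.7 CPM to 10.5 and 19.3 CPM (-1.95 ± 0.21), while its usual target Id1 rose from 12.1 and 14.6 CPM to 33 and 31.2 CPM (1.28 ± 0.22). These BMP counts became 2 and 1 without the RepB day 0 library, and 1 gene was lower without the WT day 0 library.

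Hox genes were low at day 0 and lower at day 5. Of 39 with a row of counts, 26 were tested, and all 26 were called lower, with a median of -3.27. Genes could pass the count filter through day 0 alone, so that count and median describe the members that passed. With the 3 genes that had no day 5 count set at their bound (3 counts over both libraries, 0.13 CPM) the median was -2.96. The summed level was 77.8 and 84.5 CPM at day 0 and 7.8 and 13.4 CPM at day 5. Hoxc13, a posterior gene, had 17 and 17.3 CPM and then 0.848 and 1.95 CPM (-3.85 ± 0.34). The 26 falls became 17 without the RepB day 0 library, 16 with DESeq2 and 10 with counts thinned to equal depth, and 1 gene was higher without the WT day 5 library. Embryonic fibroblasts express Hox genes, and the summed fibroblast list moved the same way (23 of 28 lower, with Ptx3 at 0 in both day 5 libraries); the part of those cells in the Hox result was not tested.

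Imprinted genes, expressed from 1 parental copy, were higher in 12 of 23 and lower in 8, with a median of 0.52. The shares were 52.2% and 34.8%, against 24.1% and 24.9% of all genes tested. Meg3, the maternal noncoding RNA of the Dlk1 domain, had 268 and 296 CPM at day 0 and 887 and 990 CPM at day 5 (1.73 ± 0.17), and its neighbours Rian and Mirg were higher too. Dlk1 itself, added after its values were seen, fell from 10.2 and 11.5 CPM to 4.07 and 4.09 CPM (-1.39 ± 0.29). Peg3 rose from 224 and 235 CPM to 529 and 632 CPM (1.33 ± 0.17), and Gnas from 307 and 326 CPM to 746 and 659 CPM (1.15 ± 0.16). Magel2, of the Prader-Willi domain and among the largest rises, had 0.97 and 1.38 CPM and then 172 and 154 CPM (7.12 ± 0.26). Grb10 and Igf2, a growth inhibitor and a growth factor that fibroblasts make, fell by 3.84 ± 0.22 and by 3.40 ± 0.23; both were added after their values were seen.

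Cytosolic ribosomal protein genes were higher in 45 of 77 and lower in 5, with a median of 0.63. Rpl8 had 1065 and 1292 CPM at day 0 and 1906 and 2182 CPM at day 5 (0.80 ± 0.16), and Rps15 had 420 and 516 CPM and then 790 and 874 CPM (0.83 ± 0.16). Many have processed pseudogenes that the counting could split, so single members are uncertain. Among the 6 genes with the largest rise in CPM were Ncl (nucleolin, of ribosome assembly), from 1612 and 2072 CPM to 2995 and 4159 CPM (0.95 ± 0.15), and the RNA-binding Serbp1, from 1487 and 1745 CPM to 2353 and 3638 CPM (0.86 ± 0.15). Cholesterol synthesis genes were lower in 9 of 17 and amino acid stress genes in 9 of 15. The median of the latter was -0.09 in WT and -1.26 in RepB, a difference that was not tested. Among them, Asns, the asparagine synthetase that Atf4 induces, had 880 and 973 CPM and then 350 and 359 CPM (-1.38 ± 0.16). Ddit4, an inhibitor of mTORC1, was the 1 amino acid stress gene called higher. Amino acid stress genes called higher were 0 without the RepB day 0 or the WT day 5 library and 2 without the RepB day 5 library. Of the ribosomal genes 3 were called lower without the RepB day 0 or the WT day 5 library.

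Glycolysis genes were higher in 8 of 21 (38.1%) and lower in 9 (42.9%), with a median of 0.007. Respiratory chain genes were higher in 10 of 73 and lower in 10 (13.7% each), below the 24.1% and 24.9% of all genes tested. Hk2, a hexokinase, fell from 691 and 773 CPM to 463 and 355 CPM (-0.85 ± 0.16), and Pkm, a pyruvate kinase, rose from 2273 and 2402 CPM to 3321 and 3033 CPM (0.44 ± 0.15). The call of Pkm was lost without the WT day 0, the RepB day 0 or the WT day 5 library (edgeR adjusted p = 0.173, 0.0908 and 0.137). The 8 glycolysis rises were 4 without the WT day 0, 3 without the RepB day 0 and 2 without the WT day 5 library. For the respiratory chain 3 were higher and 5 lower without the WT day 0 library, and 6 were higher without the RepB day 5 library. Cell cycle genes were mostly not called (16 of 26), with 3 higher, 7 lower and a median of -0.04. The shares higher and lower were 11.5% and 26.9%, against 24.1% and 24.9% of all genes tested. Top2a, of dividing cells, had 1214 and 1085 CPM and then 1120 and 1451 CPM (0.15 ± 0.16, not called). Cdkn1b (p27) rose from 51.6 and 44.9 CPM to 102 and 91.2 CPM (1.00 ± 0.18), and Ccnd3 fell from 260 and 305 CPM to 134 and 133 CPM (-1.07 ± 0.17). The 7 cell cycle falls were 4 without the WT day 0 and 3 without the WT day 5 library.

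Of 18 p53 targets 5 were higher and 3 lower (27.8% and 16.7%, against 24.1% and 24.9% of all genes tested). Aen, an exonuclease, had a log2 change of 0.90 in WT and 0.88 in RepB, and Bax, which promotes cell death, 0.49 and 0.50. For Cdkn1a and Ccng1 the values of the lines lay apart, a difference that was not tested. Cdkn1a (p21), the cell cycle inhibitor, had 337 CPM in WT and 255 CPM in RepB at day 0 and 118.95 and 258 CPM at day 5. It fell by 1.50 on the log2 scale in WT and changed by 0.02 in RepB. Its call as lower (-0.75 ± 0.19) was lost without the WT day 0, the RepB day 0 or the WT day 5 library (edgeR adjusted p = 0.54, 0.28 and 0.405). Ccng1 (cyclin G1) had 254 and 217 CPM and then 252 and 460 CPM, so that RepB alone moved, and its call as higher was lost without the WT day 0, the RepB day 0 or the RepB day 5 library (adjusted p = 0.123, 0.266 and 0.723). It was lost too with line left out of the fit (0.59, adjusted p = 0.0708), as was that of Cdkn1a (-0.67, adjusted p = 0.29), when 1 gene of the list was lower. The 5 rises became 3 without the WT day 0 or the RepB day 0 library and 2 without the RepB day 5 library. The 3 falls became 0 without the WT day 0 or the WT day 5 library. Polycomb genes, whose complexes write marks on silent genes, were higher in 6 of 26 and lower in 4, with a median of -0.05. These shares were 23.1% and 15.4%, against 24.1% and 24.9% of all genes tested. Jarid2, a cofactor of the H3K27 methyltransferase, had 422 and 544 CPM and then 550 and 676 CPM (0.35 ± 0.16, not called). The 4 Polycomb falls became 1 without the WT day 0 library and 2 without the RepB day 0 or the WT day 5 library.

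X-linked genes were shifted down. Of 534 tested, 87 were higher (16.3%) and 223 lower (41.8%), whereas 18.8% to 28.6% of the genes of each autosome were lower. Their median change was -0.31, with -0.43 in WT and -0.17 in RepB; the difference between lines has no replicate to test it. Over X-linked genes without Xist and Tsix the cas share was 50.5% and 50.2% at day 0 and 74.4% and 58.9% at day 5 in WT and RepB. Xist, the noncoding RNA that coats the inactive X, had 379 and 108 CPM at day 0 and 1290 and 1535 CPM at day 5 (2.79 ± 1.12). All day 5 values were above all day 0 values, but the lines differed so much at day 0 that the gene was not called (edgeR adjusted p = 0.34). Without the WT day 0 library its change was 3.70, and without the RepB day 0 library it was 1.90. Each of those fits drops the day 0 difference between the lines along with the library, so neither can decide the call. Xist was called with DESeq2 (adjusted p = 0.00951), limma-voom, thinned counts and all 12 libraries. Its antisense gene Tsix had 50.8 and 91.3 CPM and then 27.6 and 17.9 CPM (-1.54 ± 0.20; DESeq2 adjusted p = 0.0573). The strand setting of the counting is not given in the sources used here, so Xist and Tsix reads cannot be told apart for certain. Ftx, a noncoding gene of the same centre, rose from 9.18 and 7.84 CPM to 42.7 and 45.6 CPM (2.37 ± 0.23). Rlim, an activator of Xist, fell from 390 and 273 CPM to 213 and 222 CPM (-0.59 ± 0.17), a call lost without the WT day 0 library (-0.33, adjusted p = 0.172). Of the 10 genes of the centre 4 were higher and 4 lower; 2 were higher without the WT day 5 library and 2 were lower without the WT day 0 library.

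Later days of the same lines show where day 5 lies on the course. Those libraries share day 0 with the comparison above and serve as description, scaled over all 12 libraries, which moves CPM slightly. Day 5 was above each of days 6, 7, 8 and 10 in both lines for 702 of the genes called higher (20.2%), near the 18.2% of all genes tested. Dnmt3b was such a gene: it fell from 1376 CPM at day 5 to 74.2 CPM at day 10 in WT and from 1091 to 82.2 CPM in RepB. Pim2 went from 786 to 12.7 CPM in WT and from 1142 to 19 CPM in RepB. T, in contrast, was still rising: it reached 620 CPM in WT and 665 CPM in RepB at day 6 and fell to 2.96 and 1.12 CPM at day 10. Nanog, at 344 and 488 CPM at day 5, went on down to 39.9 and 69.9 CPM at day 10. Pou5f1 was 972 and 1168 CPM at day 5 and 61.2 and 109 CPM at day 10, so its fall lay after day 5. Klf4 and Fos stayed low, at no more than 51.4 and 14 CPM on any later day. Col1a1 turned back up, from 17.7 and 15.3 CPM at day 5 to 3569 and 5740 CPM at day 10.

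**Figure D5:**
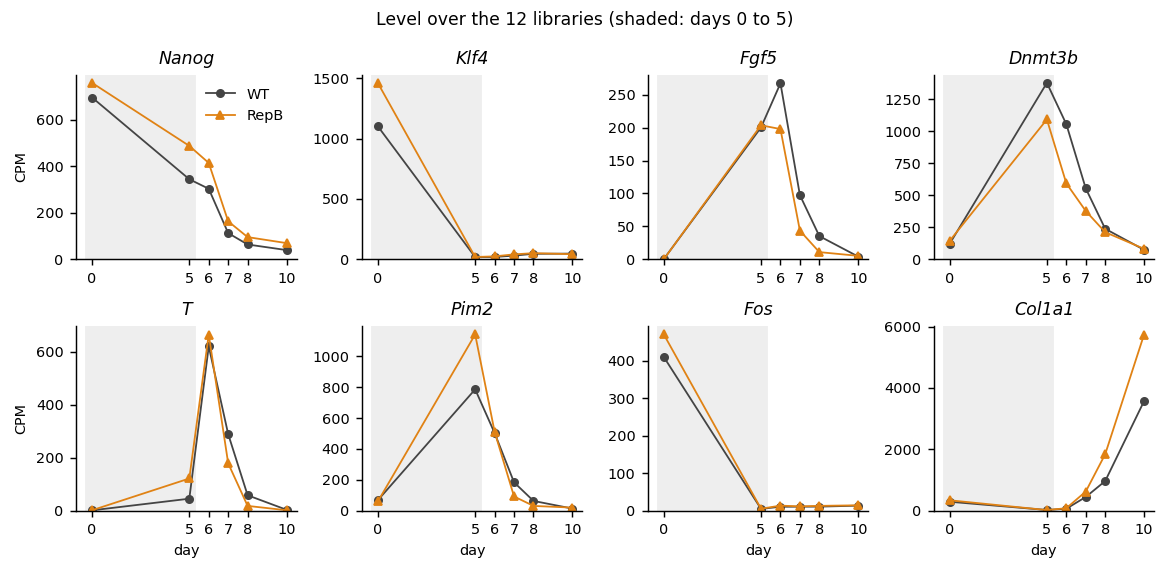
CPM (linear axes from 0) of 8 genes against day in WT (circles) and RepB (triangles), 1 library per point, with days 0 to 5 shaded. Dnmt3b and Pim2 are highest at day 5, T at day 6 (620 and 665 CPM), and Col1a1 is lowest at day 5 and highest at day 10.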

How the data were processed

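RNA from the 4 libraries was polyA-selected and prepared with a directional kit, per the labels' protocols. The authors deposited raw counts per gene and, per the file headers, separate counts for the cas and mus alleles and an exon length in bases (the other unit, not used to scale values). The submitters' processing notes name featureCounts, TopHat, Novoalign, bedtools, SAMtools and mm9, with no version. The table has 6 further count columns, of a day with no RNA sample here, which were left out. Gene names read as dates in 27 rows, and 2 are duplicated.

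Counts were tested in R 4.3.3 with edgeR 4.0.16: TMM scaling, filterByExpr on day (minimum count 10), line as a block plus day, the robust quasi-likelihood F test and Benjamini-Hochberg adjustment at 0.05. The pairing comes from the labels, since both libraries of a line are the same cell line. The script was tested on simulated data. Changes within a line used a prior count of 2. The rule for naming genes took the 12 largest rises and falls (average log2 CPM of at least 4, same sign in both lines). It also took up to 5 called and 2 uncalled members of highest CPM per list and the 6 largest CPM differences each way. Last came the 5 largest differences between lines, and Xist, Tsix, Nanog, Pou5f1, Sox2, Fgf5 and T. Not all of these are printed, Eef2 and Hsp90ab1 among those left out. Atp6v0a4, named for its difference between lines, changed by -1.94 in WT and -0.21 in RepB. Other genes given with values are mostly marked as added, while some, such as Ddit4, Rian and Mirg, are named by their call alone. The comparison and the 34 gene lists were chosen with earlier results of these data known. Alternatives used DESeq2 1.42.0, limma 3.58.1 and other edgeR settings. Shares carry exact Clopper-Pearson 95% intervals for counting error only. Promoters were read for the germline list, one of those with at least 80% matched, chosen with its calls known; of all genes tested 74.9% matched, so no check over the called genes was made.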

Additional observations from a re-analysis of the deposited data

Results flagged for a closer look

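These 8 values were marked because WT and RepB moved in opposite directions from day 0 to day 5. With 1 library per line and day the difference was not tested. All values are log2 changes in RepB less those in WT. For single genes the difference was 1.52 for Cdkn1a (WT down, RepB near 0) and 1.10 for Ccng1 (WT near 0, RepB up). For list medians it was 0.734 for p53 targets, -0.427 for blood and endothelium, 0.197 for Polycomb, 0.118 for the cell cycle and -0.068 for glycolysis. The 5 genes of the two-cell-like list that were tested, marks of a rare ES cell state, gave 1.47. None of these 5 was called in either direction, and Zscan4d had 1.71 CPM in WT and 1.19 CPM in RepB at day 0 and 0.904 and 2.73 CPM at day 5, values of few counts.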

How the results depend on the processing

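The number of genes called depended on the test more than their direction did: no called gene was called the opposite way (0) in any alternative. DESeq2 called 2243 higher and 2322 lower, and a test against a 2-fold change (glmTreat) called 797 and 1130. Other scaling, filters, limma-voom, thinning and all 12 libraries stayed within 1.5 times of 3483 and 3601. Without the line as a replicate block 3364 were higher and 3419 lower. Leaving out each library in turn, with day alone in the fit, gave 2116 to 2764 higher and 2456 to 3081 lower; 2116 came without the WT day 0 library. Under the 12 alternatives other than the 2-fold test, 1385 higher and 1480 lower calls were kept in all, among them 126 of the 185 called genes that the rule named. Of 68 counts of list members called, 48 moved by over 1.5 times with the 2-fold test, 13 with DESeq2, 13 at a mean CPM of at least 5, 3 when thinned, 2 with no filter, 1 with no replicate block, 1 with all 12 libraries and 0 with RLE or limma-voom. Leaving out a library moved 16 (WT day 0), 14 (RepB day 0), 17 (WT day 5) and 7 (RepB day 5) of them.

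List medians over 0.1 in size changed sign in the following. Without 1 library each, that of blood and endothelium ranged from -0.429 to 0.151 (without RepB day 0), of two-cell-like genes from -0.98 to 0.37 (without WT day 5), of BMP from -0.163 to 0.011 (without WT day 5) and of p53 targets from -0.138 (without RepB day 5) to 0.466. In WT alone it was 0.12 for blood and endothelium and -0.172 for p53 targets, and in RepB alone 0.647 for two-cell-like genes. At a mean CPM of at least 5, which leaves fewer genes, it was 0.913 for cardiac muscle, 0.0195 for BMP and -0.633 for the X-inactivation centre. Medians nearer 0 changed sign too: Polycomb (-0.054) was 0.138 and cell cycle (-0.041) 0.024 in RepB alone, and glycolysis (0.007) and the respiratory chain (0.001) were -0.027 and -0.006 there and negative under several other settings. Ccng1 gave -0.0109 in WT alone and Cdkn1a 0.0157 in RepB alone. Where no construction is named the cause was not tested. The RepB day 5 library, with 5297648 counts, limits what can be said of genes under 0.566 CPM.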
